A study of Mus musculus with 6 samples.

Results

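In lens capsules left in the eye after fiber removal, 10 of 18 cholesterol synthesis enzymes were called lower at 5 days than at surgery. Both cholesterol export pumps examined were called higher. The shares over all tested genes were 22.5% lower and 25.1% higher, and marker genes of other cell types also differed between the times. The genes described here are 29 named members of cholesterol synthesis, uptake and efflux, found by symbol among 56940 listed genes. They comprise 18 synthesis enzymes, 5 regulators of the sterol-responsive factors SREBP, 3 genes of uptake and transport and 3 of efflux, and each of the 29 passed the low-count filter that left 14676 genes for testing. RNA came from lens capsules with their attached epithelial cells, in 3 libraries taken 5 days after surgery and 3 libraries taken at surgery (0 h), each from 5 pooled capsules of wildtype C57BL/6 mice. In this mouse model of cataract surgery the fiber cells are removed through an anterior incision and the capsule stays in the eye. Every 0 h capsule came from the second eye of an animal whose first eye had been operated on 5 days before, so both groups come from mice with a surgical wound. The age of the mice is not given in the sources used here. The groups may therefore share mice, but nothing in the labels ties a pool to particular mice beyond this. Libraries were tested without pairing, and p-values measure the spread between pools.

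Cells make cholesterol from acetyl-CoA through mevalonate, farnesyl diphosphate, squalene and lanosterol. When sterols are scarce in the endoplasmic reticulum, SCAP carries SREBP proteins to the Golgi for cleavage and the released factor switches on the synthesis genes, and when sterols are plentiful the INSIG proteins hold the complex back. Excess sterol instead activates LXR receptors, whose targets include the export pumps ABCA1 and ABCG1. Lens fiber membranes are known for an unusually high cholesterol content, and inherited defects of LSS and of DHCR7 can cause cataract in humans.

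The libraries held 6207387, 7509954 and 8682659 gene counts at 5 days and 7709815, 9774343 and 8707928 at 0 h. Replicate 3 of 5 days stood apart from the others on the second principal component, which held 5.1% of the variance. All 6 lens epithelial markers had counts in both groups, but 4 of them were called lower (Foxe3 at -1.37, Cdh1 at -1.74, Cryaa at -2.48 and Cryab at -2.66 on the log2 scale), 1 was called higher (Pax6 at 0.28) and Six3 was not called (0.01). Their sum, most of it the crystallins Cryaa and Cryab that fiber cells also make, was 7499 to 21766.5 CPM at 5 days against 76901.7 to 93915 CPM at 0 h. Genes that mark other cell types differed between the times too. All 14 macrophage markers listed were called higher, with a summed level of 662.3 to 935.8 CPM at 5 days against 25.5 to 64.5 CPM at 0 h, and none of the 14 was without counts in either group. The 7 photoreceptor markers were all called lower, with a sum of 35.4 to 102.3 CPM at 5 days against 522.6 to 792.0 CPM at 0 h, and so were the 6 fiber markers, with a sum of 2603 to 11678 CPM at 5 days against 62994.2 to 72579.9 CPM at 0 h. The 4 endothelial markers summed to 19.3 to 39.6 CPM at 5 days and 3.37 to 9.54 CPM at 0 h. Of the 4 neutrophil markers, the 2 tested (Csf3r and S100a9) were called higher, S100a8 had counts at 5 days only and Ly6g had none in any library, with a sum of 13.9 to 23.2 CPM at 5 days against 0 to 0.329 CPM at 0 h. Of 5 tested markers of pigmented cells, Rpe65 alone was called, lower, with no counts at 5 days. In pooled tissue, fewer cells of a type and less RNA per cell cannot be told apart, and the part that the epithelial markers and these cell types had in the results below was not tested.

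Levels are given as CPM, the count divided by library size with TMM scaling, and differences as the log2 ratio of 5 days to 0 h (log2 fold change) with its standard error, SE. A gene was called at an adjusted p under 0.05 in edgeR's quasi-likelihood test, adjusted by Benjamini-Hochberg across the 14676 genes. Among the 29 members, 13 were called lower and 6 higher. Of all tested genes, 22.5% were called lower and 25.1% higher. Both directions together took in 19 members, or 65.5%, where 47.6% of all tested genes were called. Falls of at least 2-fold were called for 8 members and rises of that size for 4, beside 10.9% and 14.5% of all tested genes. The 5 day and 0 h libraries did not overlap for 21 of the 29, and for 58.1% of all tested genes. The median log2 fold change was -0.66 over the synthesis enzymes, -0.02 over the regulators, 0.61 over uptake and transport and 1.07 over efflux, beside -0.01 over all tested genes.

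**Figure D1:**
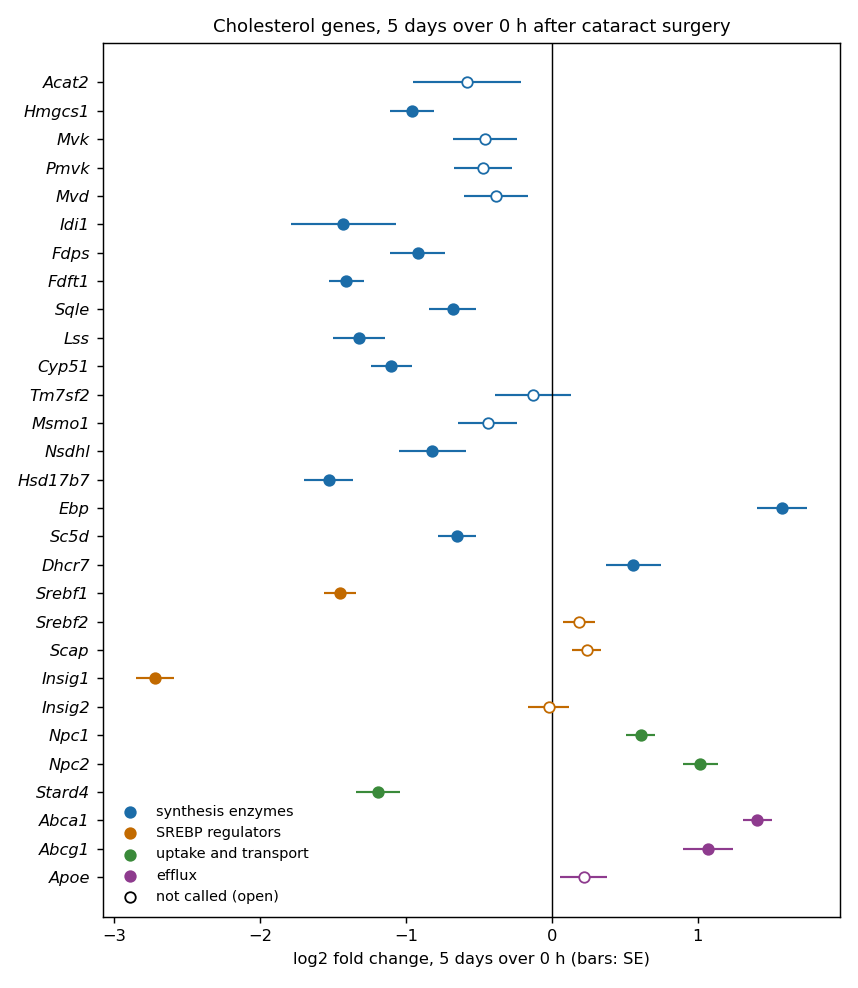
Log2 fold change of 5 days over 0 h (x axis) for each of the 29 genes (y axis, synthesis enzymes in pathway order from Acat2 to Dhcr7, then regulators, transport and efflux), with bars for the SE. Filled points passed the test and open points did not. Most synthesis enzymes lie left of zero, with Ebp at 1.58 and Dhcr7 at 0.56 to the right, and Insig1 lies furthest left at -2.72.

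Promoters of 6 members are shown as examples: Hmgcs1, Cyp51, Hsd17b7 and Insig1 among those that fell, and Ebp and Abca1 among those that rose. Of the members not shown, Srebf1 (-1.45), Idi1 (-1.43), Fdft1 (-1.41), Lss (-1.32) and Stard4 (-1.19) fell further than Hmgcs1 (-0.96) and Cyp51 (-1.10). Each promoter shown is the 250 bases before the RefSeq gene start, read along the gene's strand on build GRCm38.p6. The windows are chr13:119690101-119690350 on the plus strand for Hmgcs1, chr5:4104698-4104947 on the minus strand for Cyp51 and chr1:169969206-169969455 on the minus strand for Hsd17b7. They are chr5:28071162-28071411 on the plus strand for Insig1, chrX:8193513-8193762 on the minus strand for Ebp and chr4:53159896-53160145 on the minus strand for Abca1. Capitals mark matches, on either strand, to CCAAT (the NF-Y box), to GGGCGG (the GC box bound by Sp1), to TCACNCCAC (a form of the sterol regulatory element, SRE) and to a shortened direct repeat of the kind LXR binds.
Hmgcs1: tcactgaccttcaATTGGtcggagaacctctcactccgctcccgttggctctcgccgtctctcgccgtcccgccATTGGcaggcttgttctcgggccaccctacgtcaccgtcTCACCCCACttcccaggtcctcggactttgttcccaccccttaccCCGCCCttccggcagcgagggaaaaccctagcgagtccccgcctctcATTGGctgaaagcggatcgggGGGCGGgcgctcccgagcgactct
Cyp51: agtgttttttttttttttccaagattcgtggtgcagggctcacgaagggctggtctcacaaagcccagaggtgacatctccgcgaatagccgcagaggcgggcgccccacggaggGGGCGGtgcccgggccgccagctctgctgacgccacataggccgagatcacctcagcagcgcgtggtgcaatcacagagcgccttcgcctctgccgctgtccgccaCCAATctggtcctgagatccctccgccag
Hsd17b7: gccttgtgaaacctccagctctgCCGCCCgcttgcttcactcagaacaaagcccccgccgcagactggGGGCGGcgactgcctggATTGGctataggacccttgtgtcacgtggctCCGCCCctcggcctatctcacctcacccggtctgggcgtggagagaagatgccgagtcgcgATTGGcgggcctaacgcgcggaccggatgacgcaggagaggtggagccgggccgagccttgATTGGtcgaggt
Insig1: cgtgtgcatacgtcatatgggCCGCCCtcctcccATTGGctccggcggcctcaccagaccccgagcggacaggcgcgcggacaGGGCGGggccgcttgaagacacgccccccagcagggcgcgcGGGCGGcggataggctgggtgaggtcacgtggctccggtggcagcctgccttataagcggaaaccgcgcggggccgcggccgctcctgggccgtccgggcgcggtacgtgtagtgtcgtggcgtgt
Ebp: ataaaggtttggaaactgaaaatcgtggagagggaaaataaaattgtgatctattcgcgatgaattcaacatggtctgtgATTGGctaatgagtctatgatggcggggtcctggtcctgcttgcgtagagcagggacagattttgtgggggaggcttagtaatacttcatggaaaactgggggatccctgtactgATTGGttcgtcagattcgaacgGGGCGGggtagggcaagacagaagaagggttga
Abca1: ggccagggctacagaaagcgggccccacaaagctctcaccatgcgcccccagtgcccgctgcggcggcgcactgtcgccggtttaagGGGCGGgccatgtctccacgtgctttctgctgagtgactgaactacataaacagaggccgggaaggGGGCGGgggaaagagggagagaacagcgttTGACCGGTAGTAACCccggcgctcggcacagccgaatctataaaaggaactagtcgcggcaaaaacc
NF-Y and Sp1 are known partners of SREBP at sterol-regulated promoters. Of the 23 members with a window, 19 held CCAAT, or 82.6%, where 40.6% of the tested genes with a window did. GGGCGG lay in 21 of the 23, or 91.3%, against 64.1% of the tested genes. Among the members with a window, CCAAT was present for 9 of 9 that fell and for 3 of 4 that rose, Abca1 being the one without. The SRE letters were found in 1 of the 23, Hmgcs1, starting 137 bases before the gene start, against 1.24% of the tested genes. A full LXR repeat matched none of the 23. Its shorter form, which drops the first letter and was chosen after the Abca1 sequence had been seen, matched Abca1 at 67 bases before its start and 1 of the Srebf1 windows, and 0.143% of the tested genes. Windows for Fdps, Fdft1, Sqle, Stard4, Npc1 and Abcg1 were not used here. These matches describe letters in a window and were not tested as binding sites.

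Synthesis enzymes are taken in the order of their reactions. In sum, the 18 enzymes stood at 348.4, 311.1 and 412.3 CPM at 5 days, against 592.6, 656.6 and 539.1 CPM at 0 h. Of the 18, 10 fell and 2 rose. Fold changes ran from -1.53 for Hsd17b7 to 1.58 for Ebp on the log2 scale. Replicate 3 of 5 days exceeded the other 5 day libraries in 9 of the 10 enzymes that fell, and without it 11 enzymes fell and 1 rose. That library had the lowest fiber marker sum of its group. It also had the highest photoreceptor marker sum, at 102.3 CPM against 61.1 and 35.4 CPM in replicates 1 and 2. The part of the lower fiber and photoreceptor signal in these falls was not tested.

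The mevalonate steps opened with a fall in Hmgcs1 (ENSMUSG00000093930), which makes HMG-CoA and is a classical SREBP target. It had 48.5, 40.7 and 59.3 CPM at 5 days, against 93.5, 111.4 and 84.5 CPM at 0 h, a log2 fold change of -0.96 (SE 0.15, edgeR adjusted p = 0.000176). Every 5 day library lay below every 0 h library. Acat2, the cytosolic thiolase that joins acetyl-CoA units, was scarce, at 1.88 to 3.18 CPM at 5 days and 3.37 to 4.83 CPM at 0 h, and was not called. Its counts are uncertain, since its transcript is 97.7% identical over 1477 bases to that of Acat3, which had 20 counts over all libraries, and 98.7% over 445 bases to that of Tcp1, which had 12541. The kinases Mvk and Pmvk, which phosphorylate mevalonate, and the decarboxylase Mvd were not called either, at -0.46, -0.47 and -0.38 on the log2 scale. All 3 estimates lie below zero. Mvk was called lower without replicate 1 of 5 days (-0.66, edgeR adjusted p = 0.0435) and Pmvk without replicate 1 of 0 h (-0.64, edgeR adjusted p = 0.0245).

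Farther along, all 5 genes of the isoprenoid and squalene steps fell. Idi1, the isomerase that readies the isoprene unit for chain building, had 2.71, 5.53 and 7.66 CPM at 5 days, against 13.5, 20.8 and 9.42 CPM at 0 h. Its groups do not overlap, but each varied widely, with a log2 fold change of -1.43 (SE 0.36, edgeR adjusted p = 0.00637). Fdps, which builds farnesyl diphosphate, had 15.3, 22.9 and 28.03 CPM at 5 days, against 42.6, 46.8 and 36.96 CPM at 0 h (log2 fold change -0.92, SE 0.19, edgeR adjusted p = 0.00166). In GENCODE M21, Fdps shares 1124 exon bases, 26.7% of its own, with the protein-coding gene Gm43738 on the same strand. The identifier of Gm43738 is not among the 56940 listed genes, so no reads were counted to it. Any effect of this overlap on the Fdps counts was not tested. Fdft1, the squalene synthase that commits farnesyl diphosphate to sterols, had 32.1, 29.9 and 37.6 CPM at 5 days, against 88.8, 98.1 and 78.9 CPM at 0 h. That fall, of -1.41 (SE 0.12, edgeR adjusted p = 1.99e-06), left the groups far apart. Annotated exons of Fdft1 share 774 bases with Ctsb on the opposite strand, and whether counting used strand is not given in the sources used here. Ctsb had 3460 to 4867 counts at 5 days and 1729 to 2310 at 0 h, the reverse direction. Sqle, the squalene epoxidase and a rate-controlling step, had 19.7, 17.3 and 26.7 CPM at 5 days, against 35.6, 33.2 and 34.2 CPM at 0 h (log2 fold change -0.68, SE 0.16, edgeR adjusted p = 0.00415). Lss, which cyclises the squalene epoxide to lanosterol, had 12.1, 17.6 and 15.0 CPM at 5 days, against 37.7, 43.6 and 30.6 CPM at 0 h, a log2 fold change of -1.32 (SE 0.18, edgeR adjusted p = 6.57e-05). In none of these 5 genes did a 5 day library reach the 0 h range.

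From lanosterol onward the enzymes divided. Cyp51, which removes the first of the excess methyl groups, had 32.5, 30.9 and 39.9 CPM at 5 days, against 74.9, 84.04 and 62.6 CPM at 0 h (log2 fold change -1.10, SE 0.14, edgeR adjusted p = 3.97e-05). The reductase Tm7sf2 was not called at -0.13 (95% interval -0.63 to 0.38) and 532 of its exon bases are shared with Vps51 on the same strand. Next come the enzymes that strip the paired methyl groups in turn: the oxidase Msmo1, the dehydrogenase Nsdhl and the ketoreductase Hsd17b7. Msmo1 was not called at -0.44 (SE 0.20), with 24.3, 20.6 and 39.1 CPM at 5 days, against 37.4, 40.5 and 36.5 CPM at 0 h. Replicate 3 of 5 days is the high value, and without it Msmo1 was called lower at -0.78 (edgeR adjusted p = 0.00045). Nsdhl had 7.16, 6.66 and 9.64 CPM at 5 days, against 16.03, 14.5 and 11.3 CPM at 0 h (log2 fold change -0.82, SE 0.23, edgeR adjusted p = 0.0107). Hsd17b7 had 14.5, 9.92 and 15.5 CPM at 5 days, against 40.7, 37.1 and 37.9 CPM at 0 h, and fell furthest of the enzymes, at -1.53 (SE 0.17, edgeR adjusted p = 1.34e-05). Sc5d, the desaturase near the end of the route, had 21.01, 19.1 and 21.1 CPM at 5 days, against 29.2, 33.6 and 33.03 CPM at 0 h (log2 fold change -0.65, SE 0.13, edgeR adjusted p = 0.00152).

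Ebp and Dhcr7 went the other way. Ebp (ENSMUSG00000031168), the isomerase that shifts the sterol double bond between the Hsd17b7 and Sc5d steps, had 38.99, 28.1 and 30.3 CPM at 5 days, against 10.4, 11.8 and 10.1 CPM at 0 h. That is 3-fold higher, a log2 fold change of 1.58 (SE 0.17, edgeR adjusted p = 1.06e-05), and the groups lie well apart. No other gene of GENCODE M21 overlaps Ebp. Within a library, the ratio of Ebp counts to Hsd17b7 counts was 2.69, 2.84 and 1.95 at 5 days, against 0.255, 0.32 and 0.267 at 0 h. The ratio of Ebp to Sc5d counts was 1.86, 1.47 and 1.44 at 5 days, against 0.355, 0.353 and 0.307 at 0 h. For each the two-sided exact permutation test gave p = 0.1, below which 3 against 3 libraries cannot go. Both ratios were chosen after the values had been seen. Each sets a gene called higher over one called lower, without overlap in either, so this p was fixed beforehand and adds no support. Dhcr7, which makes cholesterol from 7-dehydrocholesterol, had 38.4, 25.7 and 43.5 CPM at 5 days, against 23.6, 27.8 and 21.6 CPM at 0 h. Its groups overlap, since replicate 2 of 5 days lies within the 0 h range. The log2 fold change of Dhcr7 was 0.56 (SE 0.19, edgeR adjusted p = 0.0267), and the call was lost without replicate 1 or 3 of 5 days (0.51 and 0.38) and without replicate 1 or 3 of 0 h (0.53 and 0.47).

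Per kilobase of annotated exon, the order of the enzymes also differed between the times. The length used merges all annotated exons of a gene and can exceed that of the transcript expressed. Levels of different genes are therefore compared only approximately. At 5 days Ebp stood at 14.1 CPM per kilobase, above Hmgcs1 at 10.8 and Fdft1 at 7.85. At 0 h Hmgcs1 and Fdft1 led at 21.0 each and Ebp stood at 4.67 CPM per kilobase.

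**Figure D2:**
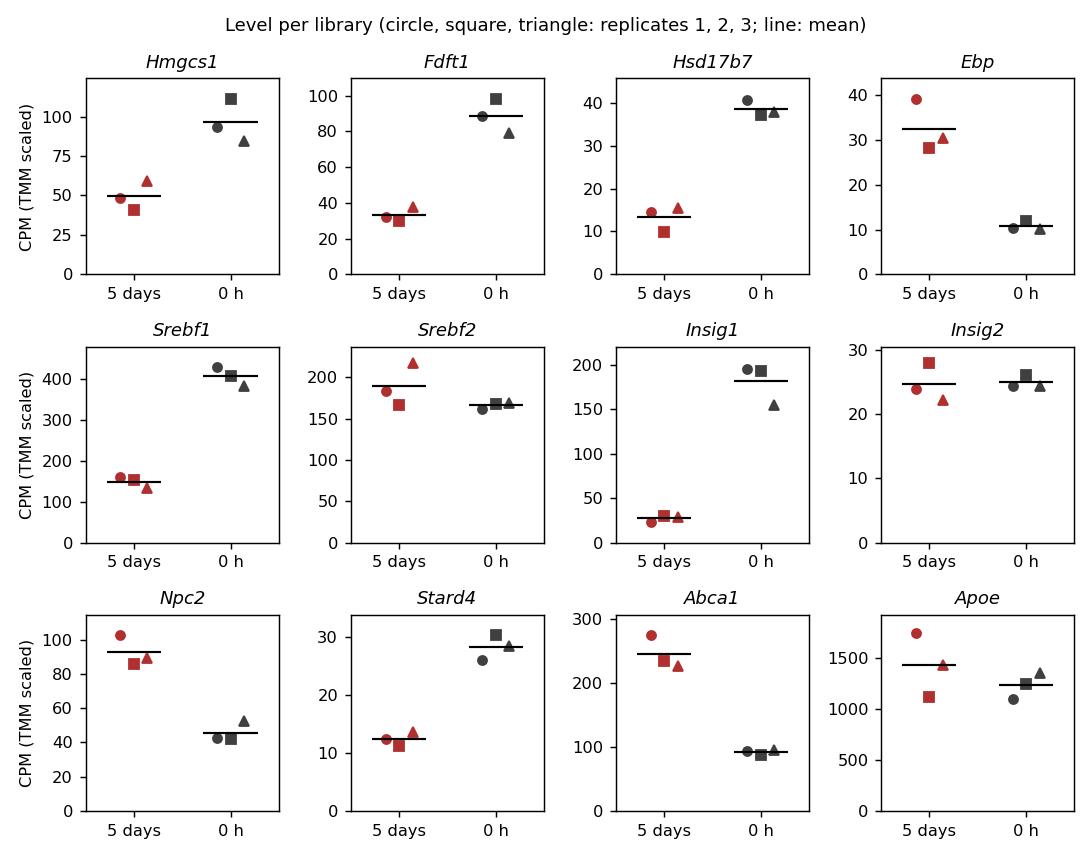
Level of 12 of the 29 genes in each library in CPM (y axis, from 0), with 5 days left of 0 h, points for libraries and a line for the mean of 3. Hmgcs1, Fdft1, Hsd17b7, Srebf1, Insig1 and Stard4 are lower in each 5 day library than in any 0 h library, Ebp, Npc2 and Abca1 are higher, and Srebf2, Insig2 and Apoe overlap.

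The regulators separated into a pair that fell and 3 that were not called. Insig1 (ENSMUSG00000045294), the endoplasmic reticulum anchor that is itself a strongly sterol-responsive SREBP target, had 23.2, 29.8 and 29.02 CPM at 5 days, against 195.6, 193.6 and 155.2 CPM at 0 h. It was 6.61-fold lower, a log2 fold change of -2.72 (SE 0.13, edgeR adjusted p = 1.79e-08), the largest difference of the 29, and 1.73% of all tested genes had a lower log2 fold change. Insig2, its paralog, which is known from other tissues to respond less to SREBP, had 23.9, 27.9 and 22.1 CPM at 5 days, against 24.4, 26.1 and 24.4 CPM at 0 h. The Insig2 libraries of both times overlap, and the difference of -0.02 (95% interval -0.30 to 0.25) was not called. Within a library, the ratio of Insig1 to Insig2 counts was 0.973, 1.07 and 1.31 at 5 days, against 8.02, 7.42 and 6.35 at 0 h.

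Srebf1 (ENSMUSG00000020538), which encodes the SREBP-1 proteins and leans toward fatty acid synthesis, had 160.9, 153.1 and 132.8 CPM at 5 days, against 428.8, 408.0 and 382.1 CPM at 0 h. It was 2.73-fold lower, at -1.45 (SE 0.11, edgeR adjusted p = 4.52e-07), with no overlap. Srebf2, which encodes the SREBP-2 protein that drives cholesterol synthesis, had 183.8, 166.9 and 216.8 CPM at 5 days, against 161.9, 167.6 and 169.4 CPM at 0 h. The groups overlap, and the difference of 0.19 (95% interval -0.03 to 0.40) was not called. Scap, the sterol sensor and escort of SREBP, had 82.1, 78.5 and 82.9 CPM at 5 days, against 68.2, 63.4 and 74.5 CPM at 0 h. Its libraries do not overlap, yet at 0.24 (SE 0.10, edgeR adjusted p = 0.0622) it missed the threshold. When libraries were scaled by their totals instead of TMM, which moves the median of all genes up by 0.13, Srebf2 (0.32) and Scap (0.37) were called higher.

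Per kilobase of exon, approximate as above, Srebf1 and Srebf2 stood at 26.4 and 26.3 CPM per kilobase at 5 days. At 0 h Srebf1 stood at 72.1 and Srebf2 at 23.2. As a ratio of counts within a library, Srebf1 over Srebf2 was 0.875, 0.917 and 0.613 at 5 days, against 2.65, 2.43 and 2.26 at 0 h. Replicate 3 of 5 days was the lowest. For this ratio and for that of Insig1 to Insig2, the two-sided exact permutation test gave p = 0.1, again its lower limit. Neither ratio depends on library scaling. Insig1 over Scap was 0.283, 0.379 and 0.35 at 5 days, against 2.87, 3.05 and 2.08 at 0 h, and Abca1 over Srebf2 was 1.5, 1.41 and 1.05 at 5 days, against 0.577, 0.524 and 0.562 at 0 h. In all, 6 such ratios were computed, each chosen after the values had been seen, and p was 0.1 for each, also after Benjamini-Hochberg adjustment of the exact permutation test over the 6. Each ratio holds a called gene whose groups do not overlap, so these permutation results add no support.

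**Figure D3:**
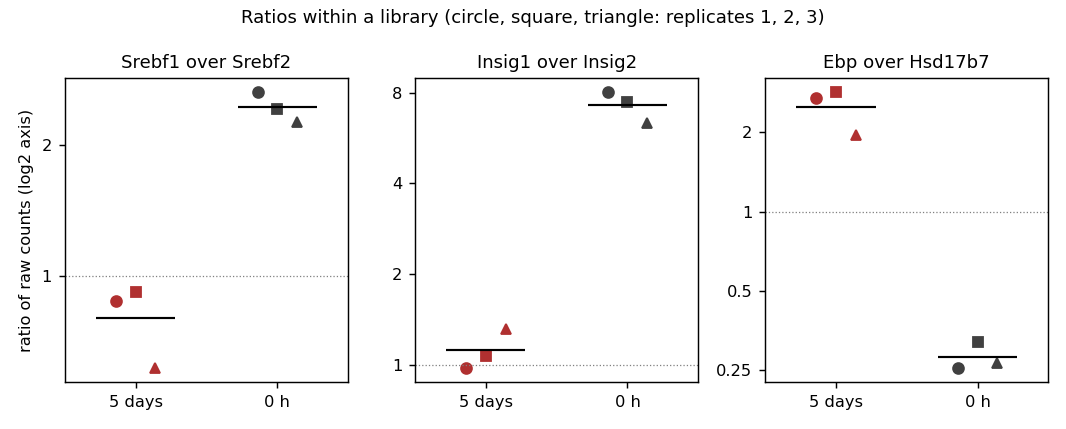
Ratio of raw counts of gene pairs within each library (y axis, log2 scale), with 5 days left of 0 h, points for libraries and a line for the mean of 3. The Srebf1 to Srebf2 ratio averages 0.802 at 5 days and 2.45 at 0 h, the Insig1 to Insig2 ratio 1.12 at 5 days and 7.26 at 0 h, and the Ebp to Hsd17b7 ratio 2.49 at 5 days and 0.281 at 0 h, with no overlap in any panel.

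Of the uptake and transport genes, the lysosomal pair rose and the cytosolic carrier fell. Npc2, the soluble lysosomal protein that takes cholesterol from digested lipoproteins, had 103.0, 85.9 and 89.3 CPM at 5 days, against 42.6, 42.1 and 52.6 CPM at 0 h (log2 fold change 1.02, SE 0.12, edgeR adjusted p = 2.25e-05). Its membrane partner Npc1 had 88.96, 85.3 and 94.5 CPM at 5 days, against 55.9, 57.6 and 62.2 CPM at 0 h (log2 fold change 0.61, SE 0.10, edgeR adjusted p = 0.000233). Both lysosomal genes were higher in every 5 day library. Stard4, a cytosolic sterol carrier and known SREBP-2 target, had 12.4, 11.1 and 13.6 CPM at 5 days, against 25.99, 30.3 and 28.4 CPM at 0 h, a fall of -1.19 on the log2 scale (SE 0.15, edgeR adjusted p = 4.89e-05).

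Efflux genes rose for the pumps. Abca1 (ENSMUSG00000015243), which loads cholesterol onto lipid-poor apolipoproteins, had 274.8, 234.7 and 226.8 CPM at 5 days, against 93.3, 87.9 and 95.1 CPM at 0 h. It was 2.66-fold higher, at 1.41 (SE 0.10, edgeR adjusted p = 4.5e-07). Abcg1, which passes cholesterol to lipoprotein particles, had 21.96, 23.99 and 23.5 CPM at 5 days, against 12.4, 8.997 and 11.9 CPM at 0 h (log2 fold change 1.07, SE 0.17, edgeR adjusted p = 0.000297). For both pumps the 5 day libraries lie above all of 0 h. Apoe, the apolipoprotein that carries exported lipid, was the most abundant member in CPM and was not called, with 1745, 1111 and 1433 CPM at 5 days, against 1094, 1246 and 1351 CPM at 0 h. Its difference of 0.22 (95% interval -0.10 to 0.53) was called in 1 of 14 other settings, without replicate 2 of 5 days (0.37, edgeR adjusted p = 0.0411). Macrophages are known to express Abca1, Abcg1, Apoe and Npc2 strongly. The summed macrophage markers were 935.8, 662.3 and 742.7 CPM in replicates 1, 2 and 3 of 5 days, and replicate 1 was also highest for Abca1, Apoe and Npc2 but lowest for Abcg1. Markers of Muller glia, another source of Apoe in the eye, were called lower for 5 of 5, with a sum of 2200.4 to 2350.3 CPM at 5 days and 3427 to 3723 CPM at 0 h. Dkk3 made up most of that sum, at a mean of 2084.8 CPM at 5 days and 3351 CPM at 0 h, and the more restricted marker Rlbp1 averaged 2.44 CPM at 5 days and 10.1 CPM at 0 h. The part of these cells in the efflux and transport results was not tested.

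Related genes outside the 29 were counted by list, to be read against the 25.1% of all tested genes called higher, the 22.5% called lower and the 47.6% called in either direction. On the fatty acid side of SREBP-1, 9 of 14 tested genes fell and 2 rose, with a median of -0.56. Scd2, the abundant desaturase of this list, had 958.8, 943.9 and 908.6 CPM at 5 days, against 2006, 2012 and 1858 CPM at 0 h (log2 fold change -1.06, SE 0.11), and Thrsp fell furthest at -1.49. Acly, which supplies cytosolic acetyl-CoA to both sterols and fatty acids, rose by 0.83 (SE 0.12). Genes of SREBP processing and sterol sensing were called for 44.4%, near the share over all genes, with 4 of 9 higher and none lower, led by Sec24d at 0.79, with Erlin2 the most abundant riser at 0.24. LXR and its targets outside the 29 were called for 41.7%, below the share over all genes, with 4 of 12 higher and 1 lower. That list holds receptors as well as targets, and it leaves out the targets Abca1 and Abcg1, which are members. Among its called genes were Pltp, the phospholipid transfer protein, at 1.66 and Scd1, a target shared with SREBP-1, at -1.72.

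Of 7 tested genes of esterification, droplets and lysosomal release 5 rose and 1 fell, with a median of 1.07. Plin2, the coat protein of lipid droplets, had 44.9, 33.8 and 48.9 CPM at 5 days, against 1.35, 2.08 and 1.67 CPM at 0 h, a 24.5-fold rise (log2 fold change 4.62, SE 0.23, edgeR adjusted p = 2.13e-08). Lipa, the lysosomal acid lipase that frees cholesterol from esters, rose by 1.43 (SE 0.13), and the hormone-sensitive lipase Lipe fell by 0.84. Lipoprotein receptors rose for 3 of 10 and fell for 4. The most abundant, Lrp1, had 2713, 2378 and 3167 CPM at 5 days, against 1581, 1443 and 1544 CPM at 0 h. The macrophage scavenger receptor Msr1 rose by 5.39 and the epithelial receptor Lrp2 fell by 1.49. All 14 macrophage markers were also called higher, and the part of these cells in the storage and receptor results was not tested.

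Sterol transfer proteins went both ways, with 6 of 15 higher and 5 lower. Scp2 fell by 1.16 and Gramd1b, which moves sterol from the plasma membrane to the endoplasmic reticulum, by 1.70, while Cav1 rose by 3.74. In the branches to oxysterols, ubiquinone, dolichol and prenylated proteins, 1 of 15 rose and 2 fell, or 20% in all: Nus1 at 0.76, the farnesyltransferase subunit Fnta at -1.24 and Coq2 at -0.36. Of 9 apolipoproteins beside Apoe, Clu alone passed the count filter, and it fell by 1.31.

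**Figure D4:**
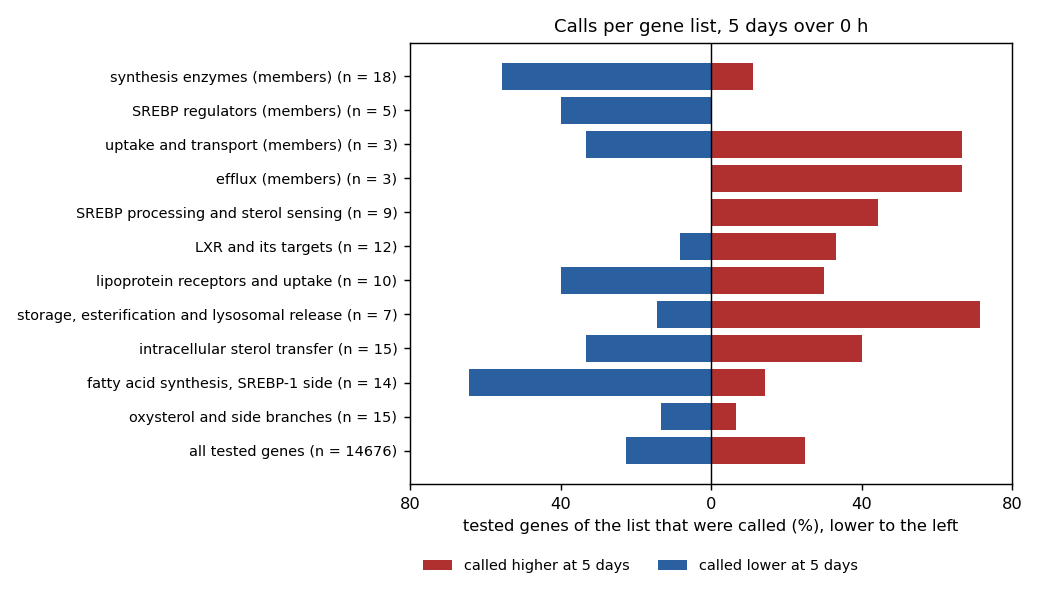
Percentage of the tested genes of each list that were called higher (right) or lower (left) at 5 days over 0 h, for the 4 groups of members, 7 related lists and all 14676 tested genes, with the number tested in brackets. The synthesis enzymes (10 of 18) and the fatty acid list (9 of 14) extend furthest to the left, and storage (5 of 7) furthest to the right.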

How the data were processed

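RNA was sequenced from 6 libraries of mouse lens capsules, 3 at 5 days and 3 at 0 h. Per the labels' protocols, libraries were made from total RNA with a stranded low-input kit. The authors deposited a raw count for each Ensembl gene. The submitters' processing notes name HISAT2, HTSeq and edgeR and the build GRCm39, without versions, and neither annotation release nor strand setting is given in the sources used here. HTSeq summary lines, 32.26 to 42.55% of reads, were left out. Symbols came from GENCODE M21 by identifier (91.23% matched), as did exon lengths and overlaps (build GRCm38), and promoters from RefSeq (GRCm38.p6).

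Counts were filtered with edgeR 4.0.16 (R 4.3.3), scaled by TMM and tested with glmQLFit and glmQLFTest. The SE is the absolute log2 fold change divided by the square root of that test's F statistic. Intervals are the log2 fold change with the normal 95% range of this SE, and they can be narrower than the test implies. For Mvk the interval is -0.89 to -0.02, while the edgeR quasi-likelihood test gave an unadjusted p = 0.0643. Near copies are transcripts at least 95% identical over at least 200 bases (BLAST). The members and lists were chosen with earlier results of these data known. The rule names all members, values in every library for called members and regulators, and from each related list the largest called change in each direction and the most abundant called gene. Other settings tried were 3 scalings, 2 filters, DESeq2 1.42.0, limma-voom (limma 3.58.1), a replicate block and each library left out in turn. Figures used matplotlib 3.10.9. The replicate numbers of the titles were not taken as pairs.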

Additional observations from a re-analysis of the deposited data

How the results depend on the processing

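Over 14 other settings, 20 of the 29 genes kept their direction and their side of the threshold in every one, among them all 13 that fell. The enzymes called higher were 1 to 2 over the libraries left out in turn, Dhcr7 being the gene lost, and Dhcr7 ranged from 0.38 to 0.76 (adjusted p 0.0014 to 0.107). With total library size in edgeR, 2 regulators were called higher (Srebf2 and Scap) against 0, and Tm7sf2 stood at 0.00 and Insig2 at 0.11; scaling the same counts another way is all that changed there. Insig2 was -0.12 to 0.11 over all settings, 0.04 without replicate 3 of 5 days and 0.01 without replicate 2 of 0 h. Msmo1 was called lower without a low-count filter (-0.44). Total library size called 4438 genes higher and 2613 lower over all genes, against 3683 and 3301.

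Same-numbered libraries of both times deviated from their group means with correlations of 0.039, -0.090 and 0.043, so the numbers were not read as pairs. A replicate block gave 6 members higher and 13 lower, as without it, and 3550 and 3188 over all genes. Precision was lowest for Acat2, Idi1 and Tm7sf2, whose SEs (0.37, 0.36 and 0.26) are the largest of the 29.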
